A study of Mus musculus with 115 samples.

Results

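The immediate early response genes followed here were Fos, Fosb, Jun, Junb, Egr1, Atf3, Ier2, Dusp1, Nr4a1 and Zfp36, 10 genes chosen by name out of 45699 in the expression table. Their levels were read in RNA-seq libraries of prostate tissue from male F2 mice, which formed 1 group with no control arm. The libraries fell into clusters of 79 and 36, described below. Females of the TRAMP line, which carry the SV40 T antigen oncogene under a probasin promoter that is active in prostate epithelium, had been crossed to WSB/EiJ males, and the F1 animals were intercrossed. All libraries are transgene positive, and each F2 mouse carries its own mix of C57BL/6 and WSB/EiJ alleles. The study describes bulk pieces of snap-frozen prostate, with small prostates represented by the ventral lobe. The labels give no age, tumor weight or histology for a library, and nothing tells which libraries share a cage, a day or a lane.

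Immediate early genes are switched on within minutes when a cell meets a growth factor, a stress or a wound, without the need for new protein synthesis, and their transcripts decay quickly. Kinases of the MAPK family act on factors already bound at their promoters, such as SRF with its ternary complex partners and CREB. Several of the products are themselves transcription factors, and others end the response. In tissue collected at necropsy, handling and ischemia before freezing are also known to induce them. Chga encodes chromogranin A, a granule protein of neuroendocrine cells, and Mki67 encodes Ki-67, a nuclear protein of cycling cells.

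Taking for each gene the transcript with the most exon bases, most members were short and simple in structure. Their median span in GENCODE M21 (GRCm38) was 3427 bases, against 20218 bases for 12695 tested protein-coding genes, and their median exon number was 2.5 against 8. Jun lies on chromosome 4 from 95049034 to 95052222, Junb on chromosome 8 from 84974484 to 84978718 and Ier2 on chromosome 8 from 84661331 to 84662852. The chosen transcript of each of these genes consists of 1 exon. Positions are those of the whole gene over all its transcripts. They can span more than the chosen transcript, which spans 2884 bases for Dusp1 and 13045 bases for Atf3. Fos lies on chromosome 12 from 85473890 to 85477273, Fosb on chromosome 7 from 19302696 to 19310051 and Atf3 on chromosome 1 from 191170296 to 191218039. Dusp1 lies on chromosome 17 from 26505590 to 26562128, Nr4a1 on chromosome 15 from 101254269 to 101274795 and Zfp36 on chromosome 7 from 28376784 to 28380253. Exons of Jun, Junb, Dusp1 and Zfp36 share 232, 173, 11 and 125 bases with a gene on the opposite strand (Junos, Prdx2, Ergic1 and Gm44710). The values were not described as strand specific, so a small share of those reads cannot be told apart.

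The 250 bases before the RefSeq start were searched on both strands in the 8 members that had a promoter entry (Egr1 and Ier2 had none). Windows of 3 members that move together below, and that hold no exon base of their gene, are shown as examples. Capitals mark TGACG or its reverse complement CGTCA, the core of the CRE that CREB binds, and in Fos also TATAAA, the TATA box (RefSeq, GRCm38.p6, Fos chr12:85473640-85473889 plus strand, Junb chr8:84978749-84978998 minus strand, Nr4a1 chr15:101266596-101266845 plus strand).
Fos promoter: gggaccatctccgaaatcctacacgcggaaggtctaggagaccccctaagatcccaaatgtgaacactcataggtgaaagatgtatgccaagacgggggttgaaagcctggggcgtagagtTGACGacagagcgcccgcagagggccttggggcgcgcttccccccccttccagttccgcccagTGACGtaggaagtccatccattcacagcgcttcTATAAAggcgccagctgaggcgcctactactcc
Junb promoter: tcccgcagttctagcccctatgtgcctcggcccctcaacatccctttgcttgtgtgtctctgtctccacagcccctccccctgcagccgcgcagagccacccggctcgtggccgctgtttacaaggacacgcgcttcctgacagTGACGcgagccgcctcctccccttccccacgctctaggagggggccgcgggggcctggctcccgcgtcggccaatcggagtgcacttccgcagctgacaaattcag
Nr4a1 promoter: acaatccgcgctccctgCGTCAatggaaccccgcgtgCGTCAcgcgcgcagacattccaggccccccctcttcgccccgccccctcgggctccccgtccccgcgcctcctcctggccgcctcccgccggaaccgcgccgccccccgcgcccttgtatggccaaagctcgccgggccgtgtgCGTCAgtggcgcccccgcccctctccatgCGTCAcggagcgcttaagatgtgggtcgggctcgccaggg
The core began 129 and 66 bases before the Fos start and 233, 213, 69 and 40 bases before the Nr4a1 start. The RefSeq start of Nr4a1 lies inside the longer GENCODE gene. TGACG was present in 6 of 8 member windows and in 17.9% of 27025 promoter windows of this length, and the full CRE, TGACGTCA, which contains the core, in 1 member (Dusp1) and 1.62% of windows. The GC box GGGCGG was present in 7 members and 32.9% of windows, the CArG box bound by SRF in 1 member (Zfp36) and 1.40%, TATAAA in 1 member (Fos) and 13%, and the AP-1 site TGANTCA in 0 members and 6.87%. A match describes letters only, and its absence from 250 bases says nothing about a factor.

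Values were deposited as TPM, a transcript level per length scaled to the same total in each library, so genes can be compared with each other. The read number behind a value is not given, so no counting error could be attached. The 20 genes with the largest summed TPM took between 48.9% and 81.8% of a library (median 66.3%), and TPM of every other gene moves down as that share moves up. Results are therefore also given after the 20 genes were removed and TPM rescaled, and with median-of-ratios size factors. The libraries fell into separate clusters of 79 and 36 on the first principal component, from which the members and listed genes were left out. They are called the larger and the smaller part, and were not tested against each other. Summed prostate luminal markers ranged from 805 to 61055 TPM in the larger part and from 54.2 to 2923 TPM in the smaller part. Summed neuroendocrine markers ranged from 1.68 to 81.4 TPM and from 51.7 to 1144 TPM. The 7 seminal vesicle secretory genes ranged from 1.92 to 172504 TPM summed in the larger part.

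All 10 members were above 0 in all libraries of both parts, and the order of their medians ran from Junb to Fosb. Junb, an AP-1 subunit, had a median of 18.28 TPM (lowest 2.12, highest 78.06). Jun, the subunit that pairs with Fos, had a median of 10.79 TPM (2.34 to 75.02), and Atf3, a stress-induced factor of the ATF/CREB family, 9.57 TPM (1.27 to 57.48). The highest 3 overlapped widely, since Junb exceeded Jun in 84 libraries and Jun exceeded Atf3 in 66.

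Ier2, a small nuclear protein of the early response, had a median of 5.56 TPM (1.96 to 22.21), and Dusp1, the phosphatase that inactivates MAP kinases, 4.82 TPM (0.73 to 19.45). Fos had a median of 4.58 TPM (0.90 to 62.55) and Nr4a1, an orphan nuclear receptor, 3.87 TPM (1.39 to 31.42). Dusp1 and Fos had close medians, yet Dusp1 exceeded Fos in 37 libraries only. Fos exceeded Nr4a1 in 71 libraries, so neighbours in the middle of the order were not separated beyond the spread between libraries.

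Zfp36, which binds AU-rich transcripts and speeds their decay, had a median of 2.88 TPM (0.56 to 10.70) and Egr1, a zinc-finger factor, 1.73 TPM (0.29 to 20.37), from a gene on chromosome 18 between 34859823 and 34864984. Fosb, a close relative of Fos, was lowest at 0.24 TPM (0.03 to 7.37) and reached 1 TPM in 16 libraries. Egr1 exceeded Fosb in every library, the only neighbouring pair of the order without an exception.

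**Figure D1:**
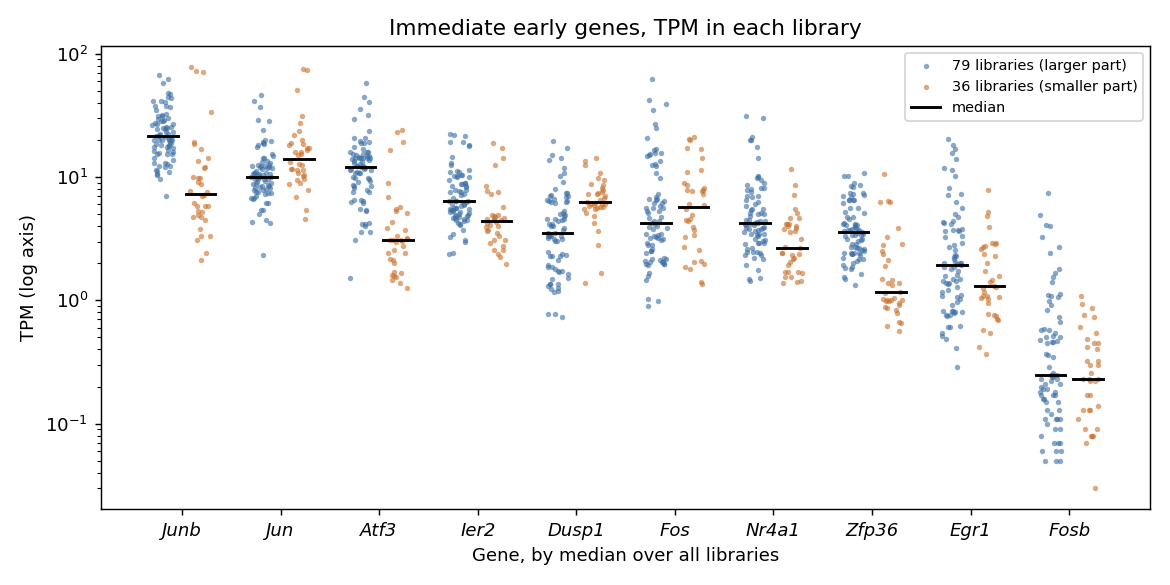
TPM of the 10 members in each library (log axis), genes ordered by median over all libraries, points colored by the larger (79 libraries) or the smaller part (36 libraries). Medians run from 18.28 TPM for Junb to 0.24 TPM for Fosb, and every gene spans more than 10-fold between its lowest and highest library.

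The members varied widely between mice. The 90th percentile over libraries was 8.63 times the 10th for Fos, 14 times for Fosb, 10.5 times for Egr1 and 8.58 times for Atf3, against 3.44 times for Jun and 4.17 times for Ier2. Within the larger part the SD of log2(TPM + 1) of Fos was larger than that of 94.9% of tested genes, and the same percentile was 93.1 for Egr1, 90.1 for Dusp1, 88.9 for Nr4a1 and 88.7 for Atf3. Zfp36 was lowest among the members at 74.6. In the smaller part the percentile ran from 3.8 for Fosb and 59.9 for Dusp1 to 91.2 for Junb, and over all libraries from 40.6 for Fosb and 55.7 for Ier2 to 81.7 for Fos.

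Members did not share an order between the parts. Medians in the larger and the smaller part were 21.34 and 7.32 TPM for Junb, 12.14 and 3.07 TPM for Atf3, 3.59 and 1.16 TPM for Zfp36, 6.36 and 4.40 TPM for Ier2, 4.23 and 2.68 TPM for Nr4a1, and 1.93 and 1.30 TPM for Egr1. The other members leaned the other way or hardly moved, with medians of 10.06 and 14.11 TPM for Jun, 4.23 and 5.68 TPM for Fos, 3.51 and 6.24 TPM for Dusp1, and 0.25 and 0.23 TPM for Fosb. The ranges of the parts overlapped for all 10 genes, and the direction between medians was the same after either rescaling. Mki67 had medians of 4.23 and 83.5 TPM and Chga of 0.30 and 57.2 TPM. In bulk tissue, fewer cells that express a gene and less RNA per cell cannot be told apart.

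The highest values of the larger part came from a few libraries shared by most members. Ranking each member over the 79 libraries, F2 replicates 17, 22, 55, 7, 54, 61 and 79 were among the top 7 for at least 5 members, and 67 libraries were in no top 7. Replicate 17 was among the top 7 for all 10, with Fos at 62.55 TPM, Fosb at 7.37, Atf3 at 57.48 and Ier2 at 22.21, each the highest of the series. Replicate 22 was also among the top 7 for all 10, with Dusp1 at 19.45 TPM and Nr4a1 at 31.42, the highest of the series, and Jun at 46.53 and Junb at 67.26, the highest of the larger part. These 7 libraries had Mki67 between 10.78 and 25.73 TPM and Chga between 0.17 and 0.73 TPM. Leukocyte markers summed to 220 to 454 TPM in them, against 35.1 to 1545 TPM over the larger part, and luminal markers to 3493 to 12873 TPM. The part of these cells in the values was not tested. The 20 top genes took 56.1% to 65.9% of TPM in these 7 libraries, against 51.6% to 81.8% over the larger part. Under either rescaling the same 7 were among the top 7 for at least 5 of 9 tested members. The share of all tested genes that peak in these libraries was not computed. The shared peaks therefore cannot be read as particular to the members. In the smaller part, replicates 46, 39 and 24 were among the top 3 for at least 5 members.

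Within the larger part the members rose and fell together. Over 79 libraries all 36 pairs of the 9 members that passed the filter (mean of at least 1 TPM, which Fosb with 0.604 TPM missed) were called positive, meaning that limma fits of every tested gene on log2(TPM + 1) of either member gave a Benjamini-Hochberg adjusted p under 0.05 in both directions. The median Pearson r was 0.779, with a range from 0.324 to 0.921. A call alone says little here, since the fits called most of the 14621 tested genes in the same direction: 75.5% with Fos, 78.9% with Jun, 85.4% with Junb, 70.5% with Egr1, 60% with Atf3, 84.6% with Ier2, 81.7% with Dusp1, 72.4% with Nr4a1 and 85% with Zfp36. The size of r stood further out for many pairs. In 19 of 36 the r was higher than that of at least 99% of tested genes in both fits of the pair, and Egr1 had the highest r with Fos of all tested genes, as did Fos with Egr1. In 3 pairs of Atf3 it was below the middle gene in at least 1 of the 2 fits, with the lower percentile at 25.4 with Zfp36, 28.4 with Dusp1 and 46.8 with Ier2. With 3 principal components added to the fit, from which the members were left out, 36 of 36 pairs were still called, while the share of tested genes called higher fell to between 0.198% and 13.5%. After rescaling without the 20 top genes 34 pairs were called and the median r was 0.68. The member fits then called between 2.24% and 56.3% of tested genes higher (median 36.9%).

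The tightest pairs were Fos with Fosb and Fos with Egr1. Fos and Fosb had r = 0.93 (rho 0.90, r = 0.92 without the 2 libraries farthest from the Fos median), Fos and Egr1 r = 0.92 (rho 0.90, 0.91) and Fosb and Egr1 r = 0.89 (rho 0.89, 0.89). Junb and Ier2 had r = 0.89 (rho 0.88, 0.87), Fos and Ier2 r = 0.89 (rho 0.85, 0.87) and Ier2 and Zfp36 r = 0.89 (rho 0.88, 0.88). Each r and rho of these 6 pairs had a permutation p of 1e-05, the smallest that 100000 resamples can give, and 90 pairs were computed in both parts. The 2 genes that end the response, Dusp1 and Zfp36, had r = 0.83 with each other (rho 0.81, 0.81). Across its 9 partners the median r was 0.84 for Ier2, 0.83 for Fos, 0.82 for Egr1, 0.81 for Zfp36, 0.77 for Fosb and Dusp1, 0.76 for Jun, 0.75 for Junb and 0.73 for Nr4a1.

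Atf3 was the loosest member, with a median r of 0.56, and was the farthest partner of Fos, Fosb, Junb, Egr1, Ier2, Dusp1 and Zfp36. Atf3 and Dusp1 had r = 0.32 (permutation p = 0.0034, rho 0.19 with p = 0.0969, r = 0.27 without the 2 farthest libraries), with limma adjusted p = 0.0062. Atf3 and Zfp36 had r = 0.36 (permutation p = 0.0011, rho 0.24 with p = 0.0319, r = 0.34 without the 2 farthest libraries), with limma adjusted p = 0.0020. Both calls were lost after rescaling (r = 0.11, adjusted p = 0.42, and r = 0.13, adjusted p = 0.351). Atf3 was closer to Nr4a1 (r = 0.73, rho 0.62, 0.70) and to Jun (r = 0.73, rho 0.63, 0.69). Summed fibroblast markers had r = -0.13 with Atf3 and 0.52 with Dusp1, and summed endothelial markers 0.06 and 0.65. The lowest r of a tested pair was 0.32 in the plain fit. It was 0.27, 0.29 and 0.43 with the smooth muscle, leukocyte or endothelial list added. With 3 principal components added it was 0.56, so the pairs of Atf3 were less loose in that fit. The part of these cells in the loose pairs was not tested.

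Without the 7 high libraries, 31 of 36 pairs were called, the median r was 0.62 and the lowest -0.03. The fits on single members then called between 42.1% and 83.3% of tested genes higher, so that count is near the share of all genes.

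**Figure D2:**
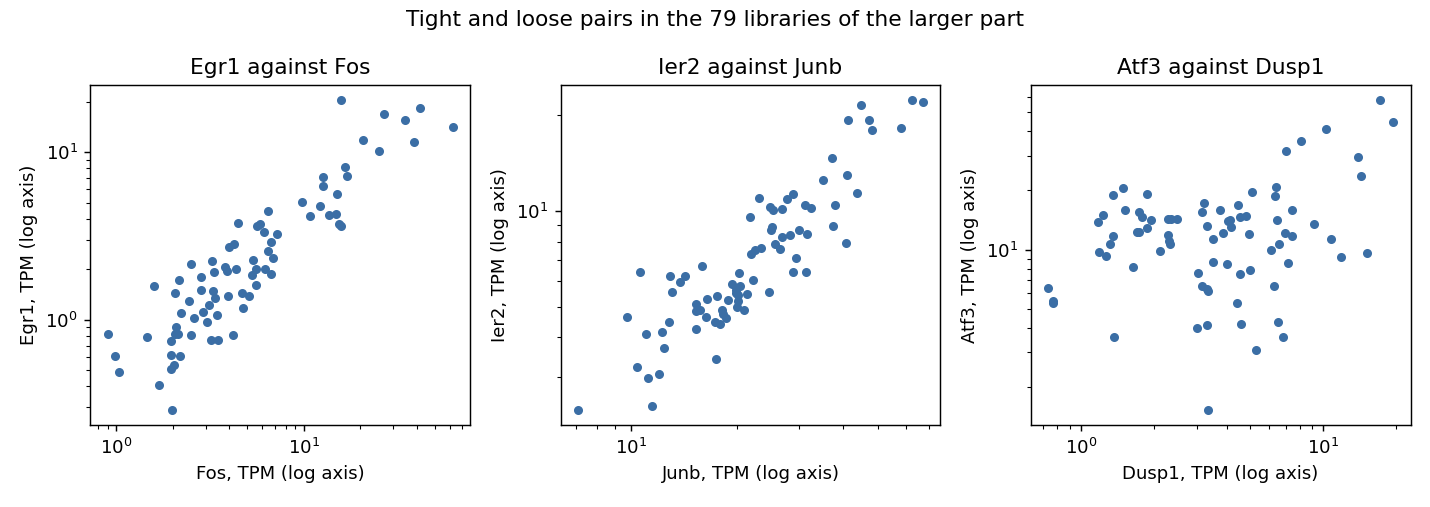
Egr1 against Fos, Ier2 against Junb and Atf3 against Dusp1 in the 79 libraries of the larger part, 1 point a library, TPM on log axes. Fos and Egr1 (r = 0.92) and Junb and Ier2 (r = 0.89) form narrow bands, whereas Atf3 against Dusp1 (r = 0.32) is a broad cloud.

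In the smaller part (36 libraries) the same genes were less tightly tied, and 18 of 36 pairs were called positive, with a median r of 0.45 (Zfp36 within its 24 libraries, explained next). The fits called 23.7% of 14611 tested genes higher with Fos, 45.9% with Jun, 48.7% with Junb, 11.3% with Egr1, 48.9% with Atf3, 47.3% with Ier2, 13.9% with Dusp1, 4.51% with Zfp36 and 0.0% with Nr4a1. Nr4a1 had 795 genes at an unadjusted limma p under 0.05, 5 of 8 members among them, and 0 genes on ranks. Zfp36 separated into 24 libraries between 0.56 and 1.49 TPM and 12 between 1.91 and 10.68 TPM. Its r is given within the 24, a narrow range that limits any r, and it entered no called pair. With Zfp36 taken over all 36 libraries the median r of the pairs was 0.52. The difference between the parts was not tested. In simulated data with few genes seeded, the fit recovered 38 of 100 genes seeded at r = 0.5 with 36 libraries, against 93 with 79. The adjusted threshold is looser in fits that call many genes, so these rates do not describe the fits here. The counts of called pairs in the 2 parts come from unequal numbers of libraries and are not on equal terms.

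The tightest pairs here were Junb and Atf3 (r = 0.90, rho 0.76, r = 0.85 without the 2 farthest libraries), Junb and Ier2 (r = 0.90, rho 0.75, 0.85), Atf3 and Ier2 (r = 0.84, rho 0.66, 0.76) and Fos and Fosb (r = 0.83, rho 0.84, 0.79), each with permutation p = 1e-05 for r. Jun had r = 0.79 with Ier2, 0.78 with Atf3 and 0.77 with Junb, with rho of 0.60, 0.58 and 0.57. Fos and Egr1, the tightest tested pair of the larger part, had r = 0.63 (rho 0.59, 0.59). The count fell to 9 with median-of-ratios scaling, 7 after rescaling, 1 with 3 principal components and 5 without 4 libraries of low Chga described below. The median share of tested genes called higher over the 9 member fits was 4.16%, 12%, 0% and 4.51% there. It was 23.7% in deposited TPM, so both the count and the share fell. Jun, Junb, Atf3 and Ier2 were highest in the 4 libraries of low Chga. Without these 4 libraries the highest r of a tested pair was 0.76.

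**Figure D3:**
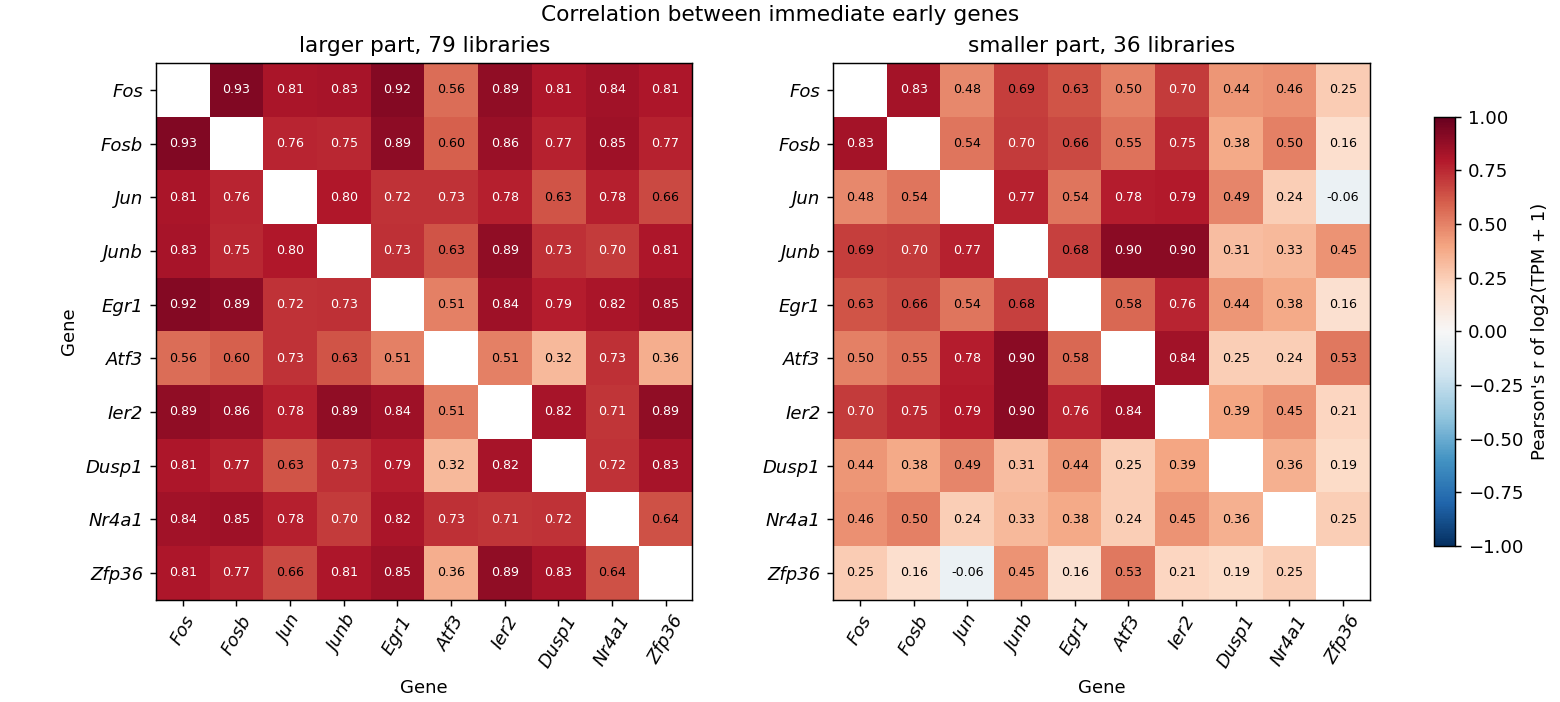
Pearson's r of log2(TPM + 1) for each pair of the 10 members, in the larger (79 libraries) and the smaller part (36 libraries, 24 for pairs with Zfp36), colored by r. In the larger part the row of Atf3 is palest (0.32 with Dusp1), and in the smaller part the rows of Dusp1, Nr4a1 and Zfp36 are palest while Junb, Atf3 and Ier2 stay dark (0.84 to 0.90).

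The relation to Mki67 was positive for every member in the larger part. All 9 tested members were called higher with Mki67, where 72.9% of tested genes were, and no filter added Fosb as the tenth. Ier2 rose by 0.44 ± 0.050 (SE) log2 units for each log2 unit of Mki67 (r = 0.71, rho 0.68, limma adjusted p = 2e-12, n = 79). Junb rose by 0.42 ± 0.052 (r = 0.67, rho 0.66, adjusted p = 4.94e-11) and Fos by 0.71 ± 0.093 (r = 0.65, rho 0.66, adjusted p = 2.32e-10). Fosb had r = 0.65 (rho 0.66), Jun 0.63 (rho 0.63), Egr1 0.60 (rho 0.64) and Zfp36 0.58 (rho 0.56). The permutation p was 1e-05 for r and rho of these 7 genes.

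Atf3, Nr4a1 and Dusp1 were lowest, with r = 0.50 (rho 0.38, permutation p = 0.00076 for rho), 0.50 (rho 0.42) and 0.43 (rho 0.41). Without replicates 61 and 55, the 2 libraries farthest from the Mki67 median and both among the 7 high ones, r ranged from 0.39 for Dusp1 to 0.67 for Ier2. Without all 7 high libraries 7 of 9 members were called, where 67.1% of genes were, and Dusp1 (r = 0.23, adjusted p = 0.0704) and Nr4a1 (r = 0.24, adjusted p = 0.0606) were not. Against all tested genes the members had a median r of 0.60 against 0.43, at percentiles between 50.2 (Dusp1) and 90.2 (Ier2).

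The share of TPM in the 20 top genes moved with these values, with r = -0.63 for Mki67, -0.79 for Junb, -0.73 for Ier2 and -0.53 for Fos in the larger part. After rescaling, 8 of 9 members were called where 33.5% of genes were, with a median r of 0.46 against 0.11 over all tested genes, and Dusp1 was not (r = 0.23, adjusted p = 0.0838). With median-of-ratios factors 8 were called where 22% of genes were, with a median r of 0.41 against -0.02, and Dusp1 again was not (r = 0.15, adjusted p = 0.28). With 3 principal components 6 of 9 were called where 9.53% of genes were. Egr1 kept a partial r of 0.44 and Nr4a1 of 0.41, whereas Junb fell to 0.06 and Ier2, the closest to Mki67 in the plain fit, to 0.23. Summed leukocyte markers had r = 0.63 with Mki67, and with that list in the fit 8 members were called, where 44.9% of genes were.

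In the smaller part Mki67 ranged up to 144.47 TPM. Its r was negative for 8 of 10 members, and for 9 of 10 without replicates 33 and 52, the 2 libraries farthest from its median. It called 1 of 9 higher, where 23.3% of genes were, and 3 lower, where 21.6% were, so neither count stood far from the share of all genes. Junb fell with Mki67 (r = -0.42, permutation p = 0.0115, rho -0.57 with p = 0.00038, limma adjusted p = 0.0223), and so did Atf3 (r = -0.43, permutation p = 0.0104, rho -0.66 with p = 2e-05, adjusted p = 0.0208). Without the 2 farthest libraries r was -0.61 and -0.60 for these genes, -0.43 for Fos, -0.42 for Fosb and Jun and -0.39 for Egr1 and Ier2. Zfp36 was called lower over all 36 libraries (r = -0.46, limma adjusted p = 0.0126). Within its 24 low libraries r was -0.03 (permutation p = 0.871, rho -0.01). A value near 0 can follow from their narrow range, so it cannot decide on the call.

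Dusp1 was the member called higher (r = 0.43, permutation p = 0.0093, adjusted p = 0.0217), and the call rested on 2 libraries. Replicates 33 and 52 had the lowest Mki67 (20 and 31.99 TPM) and the lowest Dusp1 (1.39 and 1.66 TPM). Without them r was 0.01, and rho over all 36 was 0.12 (permutation p = 0.497). Fos (r = -0.25), Fosb (-0.27), Jun (-0.06), Egr1 (-0.16), Ier2 (-0.21) and Nr4a1 (0.08) did not pass, though rho for Fos was -0.35 (permutation p = 0.039). With median-of-ratios scaling Fos (r = -0.40, adjusted p = 0.0213) and Ier2 (r = -0.45, adjusted p = 0.0100) were called lower as well, 5 members in all, where 38.2% of genes were. Summed luminal, endothelial and leukocyte markers had r = -0.74, -0.68 and -0.54 with Mki67 here. With the smooth muscle list or 3 principal components in the limma fit 0 members were called (1 and 0 at an unadjusted p under 0.05). With the leukocyte or the endothelial list 1 was called. The share of all genes called in these fits is not given here, so these counts do not single out the members.

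**Figure D4:**
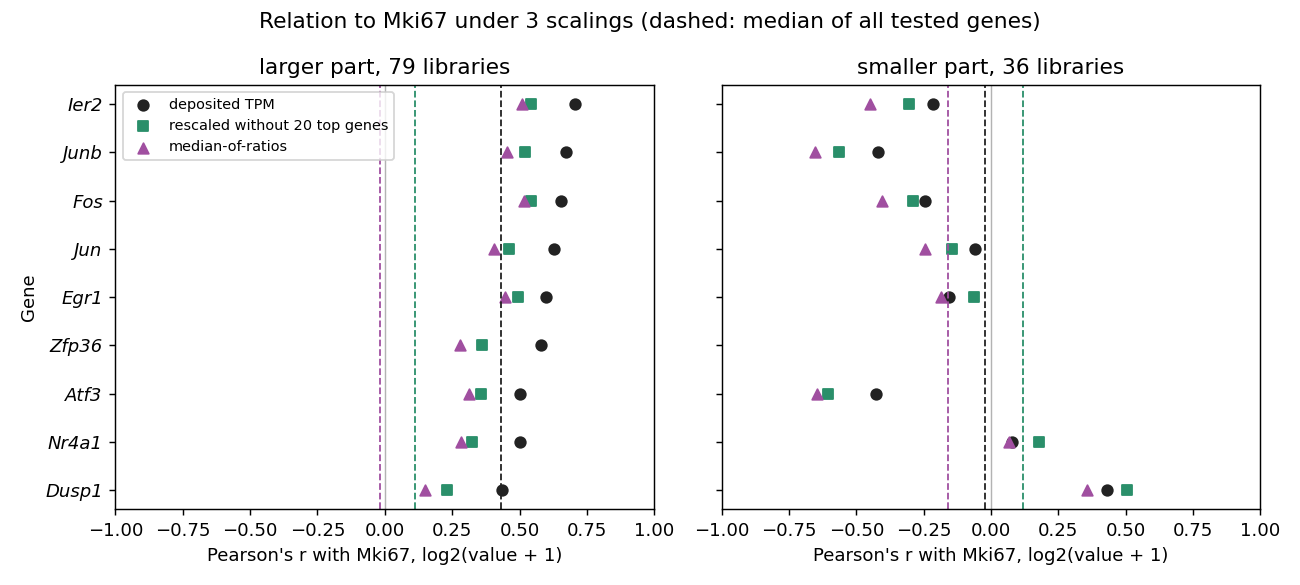
Pearson's r of the 9 tested members with Mki67 on the log2 scale in the larger (79 libraries) and the smaller part (36 libraries, Zfp36 not drawn because it separates there), under the deposited TPM, TPM rescaled without the 20 top genes and median-of-ratios scaling, with the median over all tested genes dashed. In the larger part the members stay right of 0 under each scaling (0.43 to 0.71 in deposited TPM), and in the smaller part most lie left of 0.

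Chga showed no called relation to the members in the larger part. It separated into 72 libraries between 0.06 and 0.81 TPM, which were used, and 7 between 1.19 and 4.84 TPM. Of 9 members 0 were called, where limma called 0.869% of 14618 genes, and 1 member was at an unadjusted p under 0.05. That was Dusp1 (r = 0.27, permutation p = 0.0204, rho 0.25 with p = 0.0331, adjusted p = 0.361). The other 9 genes had r between -0.01 (Jun) and 0.20 (Nr4a1). At such low Chga levels a relation may not be detectable, and the depth is unknown.

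In the smaller part 6 of 9 members were called lower with Chga, where 24.2% of 14611 genes were. Jun had r = -0.65 (permutation p = 8e-05, limma adjusted p = 0.000179), Atf3 -0.63, Ier2 -0.61, Junb -0.57 and Egr1 -0.43 (permutation p = 0.0090, adjusted p = 0.0271). Zfp36 was called over all 36 libraries (r = -0.65). Within its 24 low libraries, where the narrow range limits any r, it had r = 0.03 (permutation p = 0.878, rho 0.13). The call of Egr1 was lost after rescaling (r = -0.29, adjusted p = 0.157) and with median-of-ratios scaling (adjusted p = 0.0935). The ranks did not follow: rho was -0.17 for Jun (permutation p = 0.315), -0.04 for Atf3, -0.14 for Ier2, -0.07 for Junb and -0.29 for Egr1, and 0 members were called by limma on ranks, with 0 also at an unadjusted p under 0.05. Without the 2 libraries farthest from the Chga median r was -0.39 for Jun, -0.41 for Atf3, -0.40 for Ier2, -0.30 for Junb and -0.30 for Egr1. Fos (r = -0.07, rho 0.15), Dusp1 (-0.03, rho 0.23), Nr4a1 (-0.12, rho -0.19) and Fosb (-0.27, rho -0.09) did not pass.

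The calls rested on 4 libraries with Chga at 0.15, 1.15, 1.23 and 2.55 TPM (replicates 24, 39, 30 and 46), where the other 32 had between 21.15 and 479.05 TPM. In that order Jun was at 75.02, 74.35, 31.45 and 50.33 TPM, against 4.60 to 27.40 TPM in the other 32. Junb was at 72.40, 78.06, 33.45 and 70.84 TPM against 2.12 to 19.37 TPM. Both subunits were higher in all 4 libraries than in any other of the smaller part. In the same order the 20 top genes took 52.3%, 48.9%, 54.5% and 50.6% of TPM, the 4 lowest shares of that part. A low share raises deposited TPM of the other genes. Over the smaller part the share had r = -0.72 with Jun, -0.74 with Junb, -0.79 with Atf3, -0.73 with Ier2 and 0.50 with Chga. After rescaling r with Chga was -0.65 for Jun and -0.59 for Junb.

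Atf3 was at 23.35, 19.19, 16.48 and 23.98 TPM against 1.27 to 8.98 TPM, and Ier2 at 14.22, 18.78, 12.62 and 17.25 TPM against 1.96 to 8.49 TPM. Zfp36 was at 6.36, 6.29, 6.27 and 10.68 TPM against 0.56 to 3.89 TPM. These 3 genes did not overlap either. Fos was different, at 7.69, 17.25, 11.34 and 14.37 TPM against 1.35 to 21.26 TPM, inside the range of the others. Fosb, Egr1 and Nr4a1 were inside the range in all 4 libraries and Dusp1 in 3. The libraries were picked for low Chga after their values were seen, so no test is given. The share of all tested genes that sets these libraries apart in the same way was not computed. The lack of overlap therefore cannot be read as particular to the members.

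Markers of other cells moved with them. Summed fibroblast markers were at 2071, 1290, 735 and 2131 TPM against 36.5 to 761 TPM, and leukocyte markers at 347, 756, 575 and 996 TPM against 23.2 to 721 TPM. Luminal markers, at 1447, 1812, 1062 and 1449 TPM, were within the 54.2 to 2923 TPM of the others but far above their median of 96.4 TPM. Neuroendocrine markers, at 67.5, 51.7, 90.5 and 53.6 TPM, were below all others (215 to 1144 TPM). Mki67, at 57.87, 54.67, 74.05 and 72.94 TPM, was within range. The part of these cells in the levels of Jun, Junb, Atf3, Ier2 and Zfp36 was not tested. Without the 4 libraries 1 of 9 members was called with Chga, where 9.11% of genes were called higher, and that was Fos, upward (r = 0.48, adjusted p = 0.0437). Jun then had r = 0.04 and Junb 0.37.

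**Figure D5:**
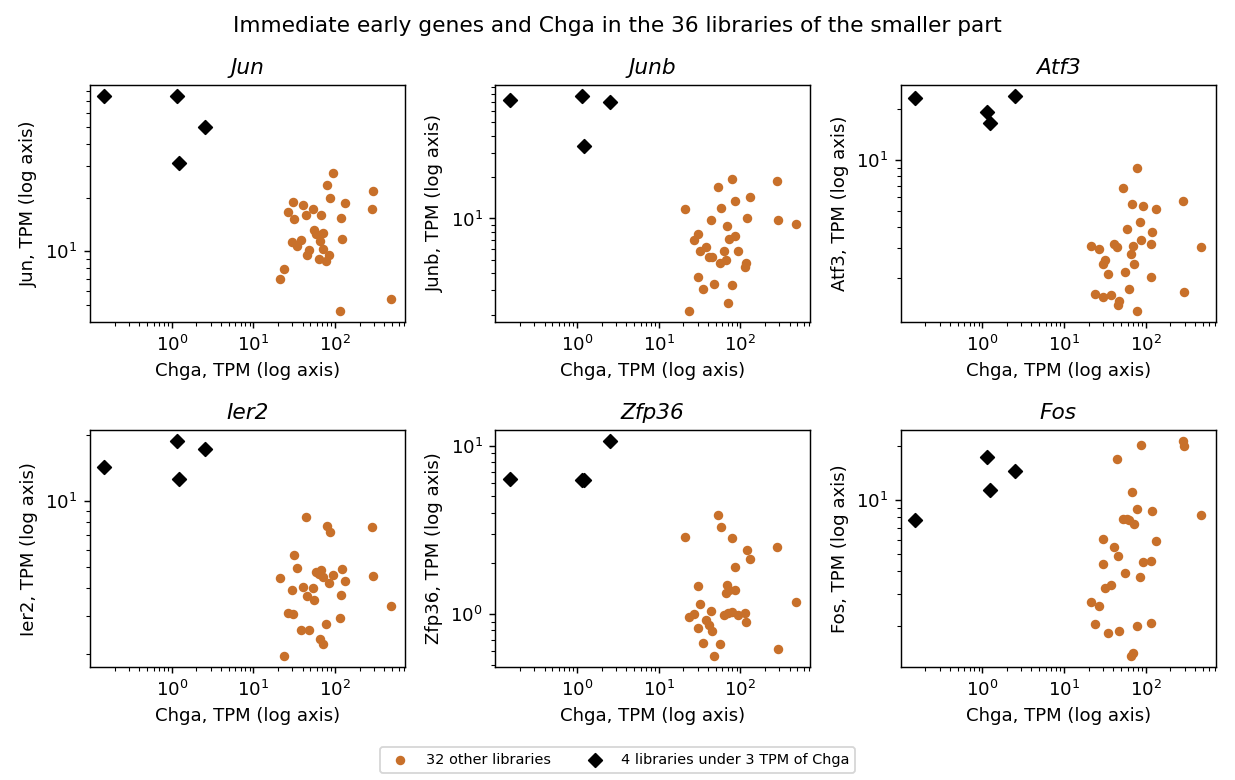
TPM of members against Chga in the 36 libraries of the smaller part, 1 point a library, both axes logarithmic. For Jun, Junb, Atf3, Ier2 and Zfp36 the 4 libraries with Chga under 3 TPM lie above all 32 others, and for Fos they lie among them.

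Other immediate early genes were compared with Fos in the same fits. Of 36 tested genes of a list of 44, 31 were called higher with Fos in the larger part and 0 lower, where 75.5% of all genes were called higher (median r 0.46 against 0.38). At the top stood Btg2, an antiproliferative gene (r = 0.89), Ccn1, a secreted matrix protein (0.85), and Arc, known from synapses (0.81). After rescaling 19 of 36 were called, where 27.1% of genes were. In the smaller part 25 of 36 were called higher, where 23.7% of genes were (median r 0.51 against 0.24). They were led by Per1, a clock gene (r = 0.74, limma adjusted p = 0.0020), Cebpb (0.69) and Dusp5 (0.66), whose r in the larger part was 0.45, 0.36 and 0.13. Btg2, Ccn1 and Arc had r = 0.18, 0.49 and -0.17 in the smaller part. After rescaling 0 were called with Fos there, where limma called 2 of 14591 genes and 2450 were at an unadjusted p under 0.05. With Mki67 in the larger part Arc (r = 0.83), Plk2 (0.82) and Hbegf (0.73) led the 30 of 36 called higher, where 72.9% of genes were, and in the smaller part 2 were called higher (23.3% of genes) and 16 lower (21.6%).

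The other lists are read against 75.5% of all genes called higher with Fos in the larger part and 27.1% after rescaling. Of 16 upstream kinases and factors 14 were called higher with Fos in the larger part, led by Egfr, a growth factor receptor (r = 0.60), Rps6ka5, a kinase acting on CREB and histones (0.56), and Map2k1, a MAP kinase kinase (0.53), and 6 remained after rescaling. All 12 heat shock genes were called higher with Fos, led by Hsp90aa1 (r = 0.55), and 4 after rescaling, and 11 of 15 hypoxia genes, led by Hk2 (r = 0.54), and 1 after rescaling, so that the hypoxia list was at or below the share of all genes. Of the cell-type lists, 12 of 12 proliferation genes were called higher with Fos before and after rescaling, 10 of 10 leukocyte genes before and 7 after, and 8 of 9 endothelial genes before and 0 after. Called higher before and after were also 8 of 10 fibroblast genes and 1, 4 of 10 smooth muscle genes and 0, 6 of 12 luminal genes and 5 of 11, 3 of 11 neuroendocrine genes and 0, and 0 of 7 seminal vesicle genes and 0 of 5. The summed luminal level had r = -0.18 with Fos.

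The genes whose pattern over the 79 libraries was most like the members included other early genes. They made up 5 of the top 20 of Fos, Fosb, Jun, Egr1 and Nr4a1, 4 of Junb, Ier2 and Zfp36, 3 of Dusp1 and 0 of Atf3. By Pearson's r over all tested genes other than members, Btg2 was in the top 20 of 9 members, all but Atf3, with r between 0.70 and 0.94. Ccn1 and Hbegf, a growth factor that binds the EGF receptor, were each in the top 20 of 7 members, and Arc, Csrnp1 and the predicted gene Gm26586 of 6. The top 5 of Fos were Btg2, Ccn1, Arc, Hbegf (r = 0.77) and Gm26586 (r = 0.76). Close to Jun were Ccn1 (r = 0.72), Ppp2r5d, a subunit of protein phosphatase PP2A (0.72), Arc (0.72) and Cpsf2, a factor of pre-mRNA cleavage (0.71). None of the 6 genes shared by 6 or more members was in the top 20 of Atf3, which again stood apart from the other 9.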

How the data were processed

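Total RNA from bulk prostate tissue of 115 F2 mice was depleted of rRNA and sequenced as read pairs. Libraries were prepared with a TruSeq RNA kit whose strand handling is not described. Per the study's methods and the submitters' processing notes, reads were trimmed at both ends (Trimmomatic), mapped to a diploid C57BL/6 and WSB transcriptome (Seqnature, Bowtie2 2.2.5, GRCm38) and quantified with RSEM 1.2.20, base calls having come from CASAVA 1.8.2. The annotation release is not given in the sources used here. The authors deposited TPM per gene and library, so no count model was used and the depth behind a value is unknown. The methods speak of fewer RNA-seq animals than there are libraries, and 1 library (replicate 83) has a label nearly that of replicate 6. Its values differ, and leaving it out changed no call.

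Each library was taken as 1 mouse of a single group, numbered in accession order. Values were put on a log2(TPM + 1) scale and tested for the 14623 genes that averaged 1 TPM or more. Parts were found by a mixture of 2 normals on the first principal component (48.6% of variance, fall in BIC 193, Ashman D 6.08), and 115 libraries kept their part without the filter and after rescaling. Within each part, limma 3.58.1 (lmFit, eBayes with trend, R 4.3.3) fitted every tested gene on log2(TPM + 1) of Mki67, Chga or a member, two-sided, with Benjamini-Hochberg adjustment over all tested genes and a threshold of 0.05. Slopes and r are thus on the log2(TPM + 1) scale, which understates changes of low genes such as Fosb. Permutation tests used 100000 resamples (scipy 1.17.1, numpy 2.4.6, pandas 2.3.3, scikit-learn 1.9.0, Python 3.11.15, figures with matplotlib 3.10.9), over 40 relations and 90 pairs. Where a gene separated by the same mixture rule within a part, r was given within its larger sub-part. The fit was first tested on simulated data. Of 100 genes seeded at r = 0.5 it recovered 93 with 79 libraries and 38 with 36 libraries. At r = 0.8 it recovered 100 of 100 in both. A moderate r in the smaller part can thus go uncalled where few genes are called. Fits that call many genes have a looser adjusted threshold, and these rates do not describe them.

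The members and lists were chosen with earlier results of these data known. Text names the members, Chga, Mki67, the genes in the top 20 of at least 5 members or the top 5 of Fos or Jun, and the 3 list genes with the largest r with Fos or Mki67. A gene that this rule names is not reported here. Promoter windows come from RefSeq (GRCm38.p6) and positions from GENCODE M21.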

Additional observations from a re-analysis of the deposited data

How the results depend on the processing

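No paired analysis was possible because no second group exists with which replicate numbers could be shared. Of the counts of called members and pairs and the sizes of the parts, 66 values under an alternative stayed within 1.5 times the value reported and 12 did not. For the smaller part, members called with Mki67 fell from 4 to 0 with 3 principal components or the smooth muscle list and to 1 with the leukocyte or the endothelial list. Members called with Chga fell from 6 to 0 on ranks, to 2 with 3 principal components (both upward) and to 1 without the 4 low-Chga libraries, an alternative chosen after the data were seen, as was leaving out the 7 high libraries. Pairs fell from 18 to 9 with median-of-ratios scaling, 7 after rescaling, 1 with 3 principal components and 5 without the low-Chga libraries. For the larger part, members called with Chga rose from 0 to 5 only when both parts entered 1 fit with the part as a term. That fit left out the 7 libraries of the larger part with Chga between 1.19 and 4.84 TPM. It included the smaller part with its 4 low-Chga libraries, so the 5 calls are not of the larger part alone. Apart from those printed above, shares of all tested genes called with Mki67 and Chga in these fits are not given. These counts alone do not single out the members. Of single values, 425 kept their call, their direction where called, or a level within the spread, 37 lost a call, 3 gained one and 8 medians moved by more than the spread. Of 212 correlations that were uncalled before and after, 51 had the other sign, among them Fos, Junb, Egr1, Atf3, Ier2 and Zfp36 with Chga in the larger part after rescaling.

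Directions reversed as follows where a value was called before or after. With Mki67 in the smaller part and 3 principal components, r was -0.083 for Dusp1 and 0.19 for Zfp36. With Chga over both parts with the part as a term, set against the larger part alone, it was -0.43 for Junb, -0.40 for Atf3, -0.34 for Ier2 and -0.40 for Zfp36. With Chga in the smaller part and 3 principal components, it was 0.42 for Fos, 0.19 for Junb and 0.41 for Dusp1, and without the low-Chga libraries 0.48 for Fos, 0.038 for Jun, 0.37 for Junb, 0.28 for Atf3, 0.21 for Ier2 and 0.10 for Zfp36. The cause was not tested.

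No read depth is given, so values near 1 TPM or below (Fosb, Egr1, Chga in the larger part) carry an unknown counting error.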
